A study of Danio rerio with 6 samples.

Results

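Solute carriers are the proteins that move sugars, amino acids, ions, metals, vitamins and nucleotides across the membranes of cells and organelles. They are grouped into numbered families by sequence, and a family number usually points to a kind of cargo. In the early zebrafish embryo they are known for bringing yolk nutrients and iron to the tissues, for recycling transmitters in the nervous system, for moving ions in the skin ionocytes and the kidney, and for feeding the mitochondria of muscle.

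The solute carriers were taken as every probe set whose single annotated gene symbol starts with slc and a number. The red cell anion exchanger slc4a1a was left out by the same rule. This gave 136 of 8793 genes with a named probe set, in 39 families, measured by 157 of the 15617 probe sets of the array. The rule goes by name, so 2 genes named after a carrier are included although they are not known to be carriers, slc7a6os and slc4a1ap. Another 5 probe sets list a carrier among several symbols and were not used.

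RNA of whole zebrafish embryos was measured on 6 Affymetrix arrays at 25 hours post fertilization (hpf), 3 of prdm1a mutants and 3 of wild type. The mutants are described as null for prdm1 and were picked out by phenotype, and the wild-type embryos were sorted in the same way. Prdm1a is a transcription factor with zinc fingers, and zebrafish use it in specifying slow muscle fibres, crest cells and the sensory neurons of the spinal cord. No probe set was named prdm1a, so the mutation was not checked here, and neither the allele nor the number of embryos per RNA sample is given in the sources used here.

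Marker genes were read for muscle, nervous system, blood, epidermis, hatching gland, notochord, neural crest, kidney and yolk. Of these 39 genes, 28 had a named probe set and 27 lay above the level filter, with at least 1 in each tissue. The filter passed 70.0% of all probe sets, so this does not show which tissues were present. The 1 measured hatching gland marker, agr2, was higher in the mutant with a log2 fold change of 2.28 (adjusted p = 0.000123 by limma), and markers that differed in blood, crest and muscle are given with those lists. Values are probe set intensities scaled to a common mean before deposit, with array medians of 132 to 148. As a sign of RNA quality, the control actc1b had a ratio of its 3' to its 5' signal of 26.2 to 38.8 on mutant arrays and 55.4 to 92.4 on wild-type arrays. For gapdhs the ratio was 3.28 to 7.65 on mutant arrays and 9.16 to 14.5 on wild-type arrays, so in both controls the genotypes did not overlap. Wild type replicate 3 had the highest ratio of both.

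The dimmest 30% of probe sets were not tested. The filter lay at a mean log2 signal of 5.36, a signal of 41.1, and 116 of the 157 carrier probe sets (73.9%) passed it, for 108 genes, against 70.0% of all probe sets. The 41 below it included every probe set of slc5 (slc5a12, slc5a6b and slc5a8l, of a sodium-coupled family) and of slc8, the sodium-calcium exchangers. Every probe set of slc14, of slc46 and of slc52, the riboflavin carriers, was below it as well. Also below it were carriers of the gut and of the kidney that are known from later stages, such as slc15a1b, the intestinal peptide carrier, slc6a19a.1 and slc6a19b, which take up neutral amino acids, and slc10a2, the bile acid carrier. The dopamine carrier slc6a3 and the mitochondrial iron carrier slc25a37, known in zebrafish from the frascati mutant, were below it too. No comparison is made for these probe sets.

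In the mutant, 3 of 116 tested carrier probe sets fell and none rose. The pair slc43a2a and slc43a2b, co-orthologs of a facilitated carrier of leucine, phenylalanine and related amino acids, were 1.70-fold and 2.21-fold lower, and slc39a13, which encodes a zinc carrier of intracellular membranes, was 9.51-fold lower. That size rests on a mutant array at a signal of 10.11, under the filter level, and the log2 fold change of -3.25 was -2.19 without that array and -1.99 with an offset of 64. The test was limma at an adjusted p of 0.05, with the Benjamini-Hochberg adjustment taken across the 10851 probe sets tested. By this rule 3.39% of all tested probe sets were called, 1.54% higher and 1.85% lower in the mutant, and 2.59% of carriers, so the carriers as a class were called about as often as the rest of the array. At an unadjusted p of 0.05 in limma, 7 carrier probe sets were higher and 18 lower. Of all 10851 tested probe sets 1111 were higher and 1121 lower at that p, 20.6% in either direction. The median log2 fold change of the tested carriers was -0.04, and that of all tested probe sets was 0.02. In whole embryos, fewer cells of a type and less RNA per cell cannot be told apart.

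**Figure D1:**
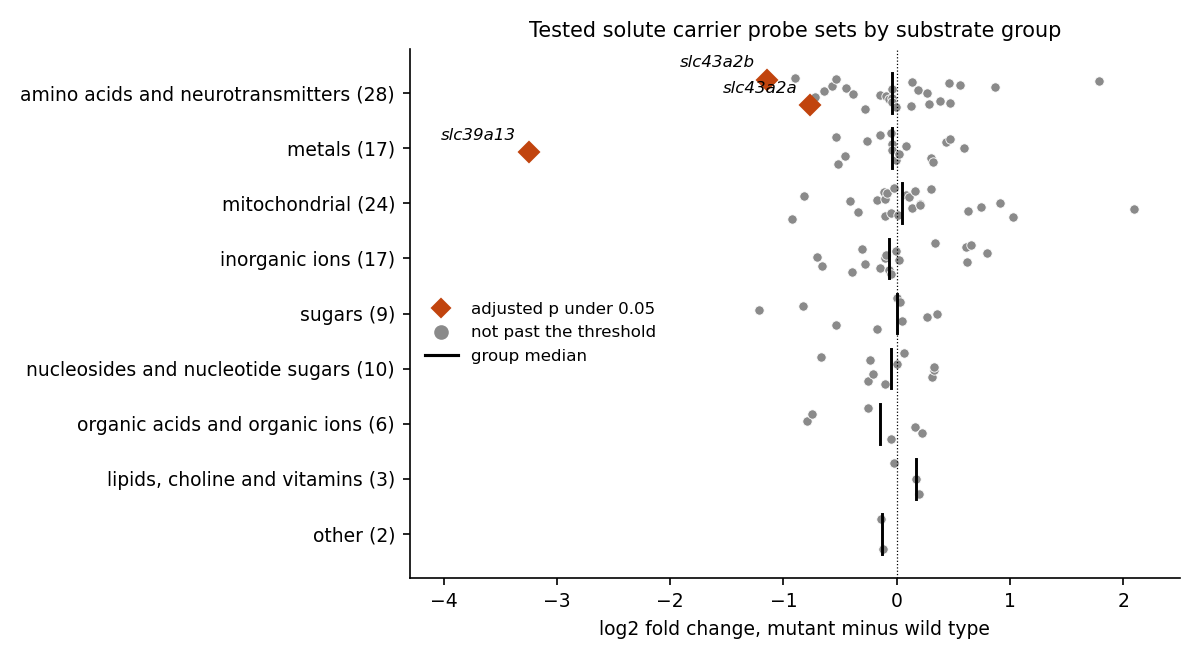
Log2 fold change of each of the 116 tested solute carrier probe sets, mutant minus wild type (x axis), by substrate group (y axis, number tested in brackets). Diamonds mark the 3 probe sets past an adjusted p of 0.05, circles the others and black lines the group medians. The medians lie between -0.15 and 0.17, with slc39a13 far to the left at -3.25.

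In the SLC43 family, none of the 3 measured genes had overlapping groups, and each was lower in the mutant. The members LAT3 (SLC43A1) and LAT4 (SLC43A2) are known to let large neutral amino acids cross the plasma membrane without sodium. Signals of slc43a2a were 581, 723 and 636 in the mutant, against 1069.5, 993 and 1236 in the wild type. The highest mutant array lay well under the lowest wild-type array. The mean signal was 646 ± 71.6 in mutants and 1099 ± 124 in wild types (SD, n = 3 each). The log2 fold change was -0.77 with an SE of 0.16 (adjusted p = 0.0332 by limma).

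Its paralog slc43a2b was dimmer and moved further. Its signals were 131, 157 and 162 in the mutant, against 443, 311 and 262 in the wild type. The groups did not overlap, and the wild-type arrays were spread more widely than the mutant ones. The mean signal was 150.1 ± 16.6 in mutants and 339 ± 93.6 in wild types (SD, n = 3 each). The log2 fold change was -1.14 with an SE of 0.24 (adjusted p = 0.0353 by limma). The third measured family member, slc43a1a, had signals of 757, 979 and 860.4 in the mutant, against 1140.0, 1324 and 1278 in the wild type. Every mutant array was again below every wild-type array, with a log2 fold change of -0.53 (95% interval -0.87 to -0.20, adjusted p = 0.0896 by limma), which did not pass. Over all tested probe sets 13.8% were separated in this way and 13.2% the opposite way, and of the 116 carriers 20 and 14 were.

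Leaving out a single array ended both calls in most cases. The slc43a2a call ended with any single array left out (limma adjusted p 0.0535 to 0.109), while its log2 fold change stayed between -0.85 and -0.68. The slc43a2b call was kept only without wild type replicate 3 (-1.31, 0.0217). Without any other single array slc43a2b was at -1.2 to -0.93 (0.0707 to 0.125). With the ratio of gapdhs or of actc1b as a covariate, slc43a2a was at -0.67 and -0.35 (adjusted p = 0.419 by limma and 0.652) and slc43a2b at -1.49 and -1.47 (0.176 and 0.282). Both ratios separated the genotypes, so in those fits RNA quality and genotype cannot be told apart. The part of RNA quality in these differences was not tested.

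**Figure D2:**
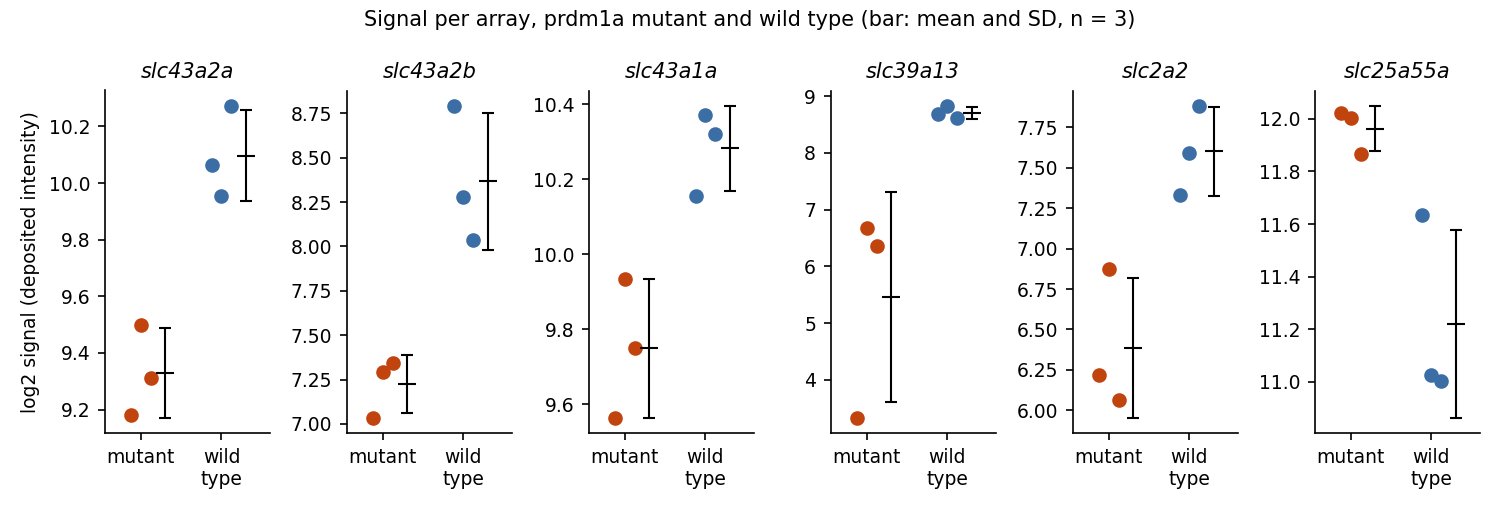
Log2 signal (y axis, a separate scale in each panel) of 6 carriers in each array, with mutant arrays at the left of each panel and wild-type arrays at the right. Points are arrays, and the bar beside them is the mean and SD of 3. No panel has overlapping groups, and slc39a13 has a mutant array at a signal of 10.11, far under the other two.

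Among metal carriers, slc39a13 was the only probe set past the threshold of 17 tested. The ZIP family SLC39 is known to bring zinc into the cytosol and the ZnT family SLC30 to take it out of the cytosol, and human SLC39A13 is known for a connective tissue disorder. Signals of slc39a13 were 10.11, 102 and 82.3 in the mutant, against 412, 453 and 392 in the wild type. The wild-type arrays agreed closely, and mutant replicate 1 was under the other mutant arrays by a wide margin. The log2 fold change was -3.25 (SE 0.74, adjusted p = 0.0489 by limma). Without mutant replicate 1 it was -2.19 (adjusted p = 0.00384 by limma), and with an offset of 64 added before the log it was -1.99 (0.00504), so the size of the change depends on dim values. Without mutant replicate 3 or any wild-type array it did not pass (0.0757 to 0.164), nor with the ratio of gapdhs or of actc1b as a covariate (-4.07 and -1.12, 0.260 and 0.760).

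No other zinc carrier passed. The closest was slc30a7, which loads zinc into the Golgi, with signals of 634, 747 and 661 in the mutant, against 1000.0, 923 and 991 in the wild type, and a log2 fold change of -0.52 (SE 0.14, adjusted p = 0.0820 by limma). Of the 8 tested SLC39 probe sets, those of slc39a9 were at -0.54 and -0.14, and those of slc39a7 at -0.04 and 0.32. The other ZIP genes lay from -0.04 for slc39a6 to 0.60 for slc39a3, and SLC30 genes other than slc30a7 from -0.05 to 0.47. The copper importer slc31a1 was level, with a brighter probe set at -0.01 (95% interval -0.29 to 0.28).

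Carriers of iron and heme in the red cell list lay on both sides of 0 without a call. Of 9 listed genes 6 were measured and 5 were tested. The iron importer slc11a2, known in zebrafish from the chardonnay mutant, had signals of 1344, 1339.9 and 1477 in the mutant, against 1999, 2006 and 1704 in the wild type. Its groups did not overlap, with a log2 fold change of -0.45 (SE 0.13, adjusted p = 0.0959 by limma). The iron exporter slc40a1, known from the weissherbst mutant for handing yolk iron to the blood, had signals of 1290.4, 1206 and 1196 in the mutant, against 1168, 818 and 781 in the wild type. Here the mutant was the higher group, at 0.44 (SE 0.17, adjusted p = 0.200 by limma). The mitochondrial carriers of red cells were at -0.92 (adjusted p = 0.210) for slc25a38b, which brings glycine in for heme synthesis, and 0.14 (adjusted p = 0.663) for slc25a39, and the heme carrier slc48a1b was at -0.14 (adjusted p = 0.638). Of 3 blood markers tested, hbbe2 was lower by a log2 difference of -1.91 (adjusted p = 0.00194 by limma), while gata1a was at 0.75 and alas2 at 0.25, neither past the threshold.

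The other amino acid carriers did not pass. Of 28 tested probe sets in the amino acid and neurotransmitter group, the 2 SLC43 calls were the only ones, and 4 were higher and 6 lower with no overlap between groups, where 13.2% of all tested probe sets were higher and 13.8% lower in that way. The neutral amino acid exchanger slc1a4 was at -0.57 (adjusted p = 0.137 by limma) and slc7a7, the light chain of a basic amino acid exchanger, at -0.64 (0.161). In the SLC7 family the smallest p was that of slc7a8a, a neutral amino acid exchanger, whose dimmer probe set had signals of 299, 246 and 409.8 in the mutant, against 193, 208 and 124 in the wild type. It stood at 0.87 (SE 0.27, adjusted p = 0.116 by limma), and the brighter slc7a8a probe set stood at -0.04 (0.917), so the gene's probe sets disagreed. The heavy chains that carry SLC7 proteins to the surface were at 0.19 for slc3a2a and -0.28 for slc3a2b. In SLC38, the sodium-coupled neutral carriers, slc38a4 had signals of 774, 586 and 563 in the mutant, against 551, 483 and 435 in the wild type. The mutant arrays were all higher, at 0.38 (adjusted p = 0.272 by limma), and the 7 probe sets of SLC38 ran from -0.39 to 0.56.

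Of 26 listed carriers of the nervous system 6 were measured and 5 tested, and none of these differed past the threshold. The glial glutamate carrier slc1a3a had signals of 1714, 1335 and 1736 in the mutant, against 1356, 1390.0 and 1161 in the wild type, with a log2 fold change of 0.29 (SE 0.15, adjusted p = 0.327 by limma). The groups overlapped. The GABA carrier slc6a11a had signals of 479.7, 519.9 and 511 in the mutant, against 359, 374 and 364 in the wild type. Its arrays were tight within each genotype and did not overlap, at 0.46 (SE 0.15, adjusted p = 0.127 by limma). The glutamate carrier slc1a2b was at -0.04, the vesicular acetylcholine carrier slc18a3a at -0.09 and the vesicular GABA carrier slc32a1 at 0.13. The intervals were -0.45 to 0.38, -0.70 to 0.52 and -0.42 to 0.68, which leave room for a moderate change in the last 2.

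In the pigment list 2 of 5 genes were measured and both were tested. The list is not a full set of pigment cell carriers. Outside it, the SLC2 gene slc2a11b was at -0.53 (95% interval -1.08 to 0.01, adjusted p = 0.253 by limma). The SLC2 gene slc2a15b, needed for a pigment cell lineage in medaka, had signals of 368, 345 and 261 in the mutant, against 319, 247 and 385 in the wild type. It was at 0.04 (95% interval -0.46 to 0.55). The exchanger slc24a4a had signals of 49.1, 66.9 and 114 in the mutant, against 53.7, 80.6 and 107 in the wild type, and was at -0.10 (-0.98 to 0.78). The neural crest markers fell, crestin (-1.88, adjusted p = 0.00124 by limma), sox10 (-0.95, 0.0227) and mitfa (-1.25, 0.0273), while dct was at 0.03 (0.946).

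Among sugar carriers, the nearest to the threshold was slc2a2, which encodes the glucose carrier of liver and pancreas. Its signals were 74.3, 117 and 67.0 in the mutant, against 161, 193 and 236 in the wild type. The groups did not overlap, and the log2 fold change was -1.22 (SE 0.28, adjusted p = 0.0523 by limma), which did not pass. It passed in 7 of its 18 alternatives, among them median centring (0.0465), cyclic loess (0.0478) and robust variance estimation (0.0480). With the ratio of gapdhs or of actc1b as a covariate it was at -0.67 and -0.53 (0.605 and 0.719). With single arrays left out it passed only without mutant replicate 2 (0.0422). Without any other single array it was at an adjusted p of 0.0613 to 0.171. The glucose carrier slc2a3a, of the type known from neurons in mammals, had signals of 229, 278 and 221 in the mutant, against 405, 272 and 710.4 in the wild type, at -0.83 (0.186). The endoplasmic reticulum sugar phosphate carriers of SLC37 had 4 tested probe sets from -0.17 to 0.35.

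**Figure D3:**
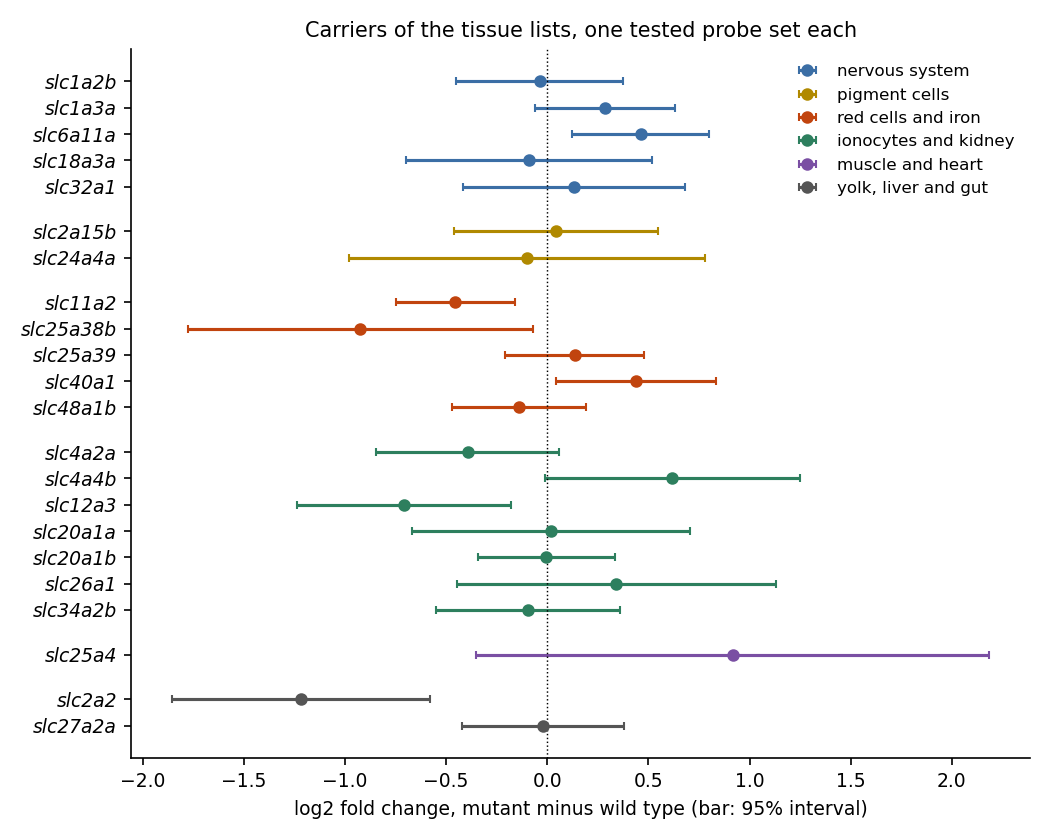
Log2 fold change, mutant minus wild type (x axis), with its 95% interval, for the carriers of the 6 tissue lists that were tested (y axis, coloured by list). All are short of an adjusted p of 0.05. The interval of slc2a2 runs from -1.85 to -0.58 and that of slc25a4 from -0.35 to 2.18.

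In the mitochondrial family SLC25, 24 of 29 probe sets were tested and none passed. All 3 of slc25a14 were below the filter. The brightest in wild type had signals of 1.47, 14.3 and 2.45 in the mutant, against 23.6, 52.2 and 150 in the wild type. Its mean wild-type log2 signal of 5.83 was above the filter level of 5.36, so it failed the filter through the dim mutant arrays. The others had overlapping groups, with log2 differences of -3.47 and 1.74. The phosphate carrier slc25a3b, which supplies phosphate for ATP synthesis, had signals of 8523, 7888 and 8424 in the mutant, against 8742, 8299.6 and 7637 in the wild type. Its log2 fold change was 0.01 with a 95% interval of -0.23 to 0.25. The carnitine and acylcarnitine carrier slc25a20 had signals of 2411, 2325 and 1929.9 in the mutant, against 2067, 2323 and 1911 in the wild type, at 0.08 (-0.24 to 0.40). Both intervals lie inside a 1.5-fold change in either direction.

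The family member slc25a55a was the only carrier at an adjusted p under 0.1 that was higher in the mutant. Its signals were 4159, 4105 and 3732 in the mutant, against 3175, 2084 and 2051 in the wild type. All mutant arrays were above all wild-type arrays, at 0.74 (SE 0.18, adjusted p = 0.0558 by limma). Wild type replicate 1 was nearest to the mutant, and without it the change was 0.95 (0.0112). Without any other single array it was 0.63 to 0.79 (0.0952 to 0.195), and with the ratio of gapdhs or of actc1b as a covariate 0.65 and 0.33 (0.501 and 0.716). The paralog slc25a55b, a dim probe set, was at 0.63 (0.502) with overlapping groups. Another member, slc25a48, had signals of 95.1, 56.1 and 83.7 in the mutant, against 44.97, 39.1 and 29.7 in the wild type, at 1.03 (0.128). Its mean wild-type log2 signal of 5.22 was under the filter level of 5.36, so it passed the filter through the mutant arrays. On the lower side slc25a43 was at -0.82 (0.0960).

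Of 6 genes in the muscle and heart list 1 was measured, the adenine nucleotide carrier slc25a4, known for exchanging ADP and ATP. Its signals were 2136, 368 and 806 in the mutant, against 327, 385 and 749 in the wild type. Mutant replicate 1 stood far above all other arrays, and the groups overlapped, at 0.92 (SE 0.56, adjusted p = 0.390 by limma). Without that array it was 0.26. Of 5 measured muscle markers, smyhc1 of slow fibres was lower in the mutant with a log2 fold change of -2.98 (adjusted p = 2.82e-05 by limma) and tnnt3a of fast fibres was higher with 1.16 (0.00453), while mylpfa, ckma and ckmb were at 0.23 to 0.42 and did not pass. The part of muscle in the slc25a4 values was not tested.

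The families grouped by number as ion carriers gave no call in 17 tested probe sets, and the cargo of single members was not tested. In the ionocyte and kidney list 9 of 19 genes were measured and 7 tested. The thiazide-sensitive sodium chloride carrier slc12a3 had signals of 200.3, 185 and 189.7 in the mutant, against 346, 393 and 225 in the wild type, at -0.71 (SE 0.23, adjusted p = 0.133 by limma). Wild type replicate 3 was near the mutant, and without it the change was -0.94 (0.0325). Without any other single array it was -0.74 to -0.54 (0.224 to 0.360). The bicarbonate carrier slc4a4b had signals of 70.6, 68.6 and 96.7 in the mutant, against 52, 50.1 and 49.8 in the wild type, at 0.62 (0.252), so these 2 members differed in direction. The phosphate carrier slc20a1b had signals of 2334, 2655 and 2499.8 in the mutant, against 2061, 2607 and 2909 in the wild type. It was level, with an interval of -0.34 to 0.34. In SLC26 the prestin gene slc26a5, named for the motor protein of mammalian hair cells, was at -0.65 (adjusted p = 0.0993 by limma), with signals of 304 to 409.6 in mutants and 474 to 638 in wild types.

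The SLC35 family was grouped by its number with carriers of nucleotide sugars, which feed glycan synthesis in the Golgi. The cargo of single members was not tested. All 9 SLC35 probe sets passed the level filter. Signals of slc35b4, a Golgi nucleotide sugar carrier, were 222, 214 and 221 in the mutant, against 304, 319 and 430.1 in the wild type. The mutant arrays were nearly equal and all lower, at -0.66 (SE 0.19, adjusted p = 0.0988 by limma). The brightest SLC35 probe set, of slc35f6, had signals of 2198, 2533 and 1901 in the mutant, against 2627, 2653 and 2358 in the wild type, at -0.21 (0.435). The other SLC35 probe sets lay between -0.26 and 0.33.

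Lipid and organic acid carriers gave no call in 3 and 6 tested probe sets. The fatty acid carrier and acyl-CoA synthetase slc27a2a had signals of 2035, 2325 and 1663 in the mutant, against 2061, 2393 and 1667 in the wild type, at -0.02 (95% interval -0.42 to 0.38). In the yolk, liver and gut list of 10 genes slc2a2 and slc27a2a were the 2 members tested of 5 measured. The organic ion carrier gene slc22a31 was at -0.79 (adjusted p = 0.0916 by limma), with no overlap between groups. The SLC16 monocarboxylate carriers tested ran from -0.75 for slc16a9b to 0.22 for slc16a3b, and none passed.

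Across the carriers, 28 of 116 tested probe sets (24.1%) had a 95% interval inside a 1.5-fold change in either direction, and 27.3% of all tested probe sets did. Those 28 include the zinc carriers slc30a5, slc30a6 and slc30a9, the glutamine carriers slc38a2 and slc38a5b and 7 SLC25 probe sets. For the rest the interval reached beyond 1.5-fold on at least 1 side. At the wider adjusted p of 0.1, 11 carriers were lower and 1 was higher, where 4.03% of all tested probe sets were lower and 3.45% higher, 7.47% in all.

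Membrane transporters with other names were read in the same fit. Of 49 tested probe sets for pumps, channels, ABC transporters and partners of carriers, 1 passed (2.04%), where 3.39% of all tested probe sets did. This was the mitochondrial pyruvate carrier subunit mpc2b. Its signals were 6107, 5059 and 5728 in the mutant, against 3569.8, 3353 and 3145 in the wild type. The groups were far apart, with a log2 fold change of 0.74 (SE 0.12, adjusted p = 0.0125 by limma). The mpc2b call was lost with mutant replicate 1, mutant replicate 3 or wild type replicate 2 left out (0.0544 to 0.0689), without the variance trend (0.0593) and with the ratio of gapdhs or of actc1b as a covariate (0.283 and 0.455). Of the 49, 25 lay above 0 and 24 below, and at a limma adjusted p of 0.1, 3 were higher and 3 lower. The lower ones were the brighter abcf1 probe set (-0.49, 0.0581), atp6v0d1 (-0.49, 0.0832) and atp6v0cb (-0.51, 0.09999). The higher ones were mpc2b, rhbg and a probe set of atp2a2a (0.0619). The other tested probe sets of abcf1 and atp2a2a were at 0.20 and 0.10 (0.808 and 0.829), so the probe sets of each gene disagreed. The 5 tested aquaporin probe sets, of water channel genes, were all above 0, from 0.27 for aqp8a.1 to 1.01 for a probe set of aqp12, and none passed. The ammonia channel gene rhbg was at 1.49 (0.0579), at signals of 61.6 to 108 in mutants and 21.7 to 32.8 in wild types. Its wild-type signals were all under the filter level of 41.1, so it passed the filter only through the mutant arrays. Another rhbg probe set, below the filter, had overlapping groups. Its signals were 28.5, 19.2 and 81.6 in the mutant, against 18.7, 18.4 and 31.2 in the wild type. The brighter probe set of bsg, the common partner of SLC16 carriers, was level at 0.08 (95% interval -0.17 to 0.33). A dimmer bsg probe set was below the filter and had overlapping groups. It had signals of 8.51, 50.3 and 11.3 in the mutant, against 28.5, 70.4 and 83.4 in the wild type.

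**Figure D4:**
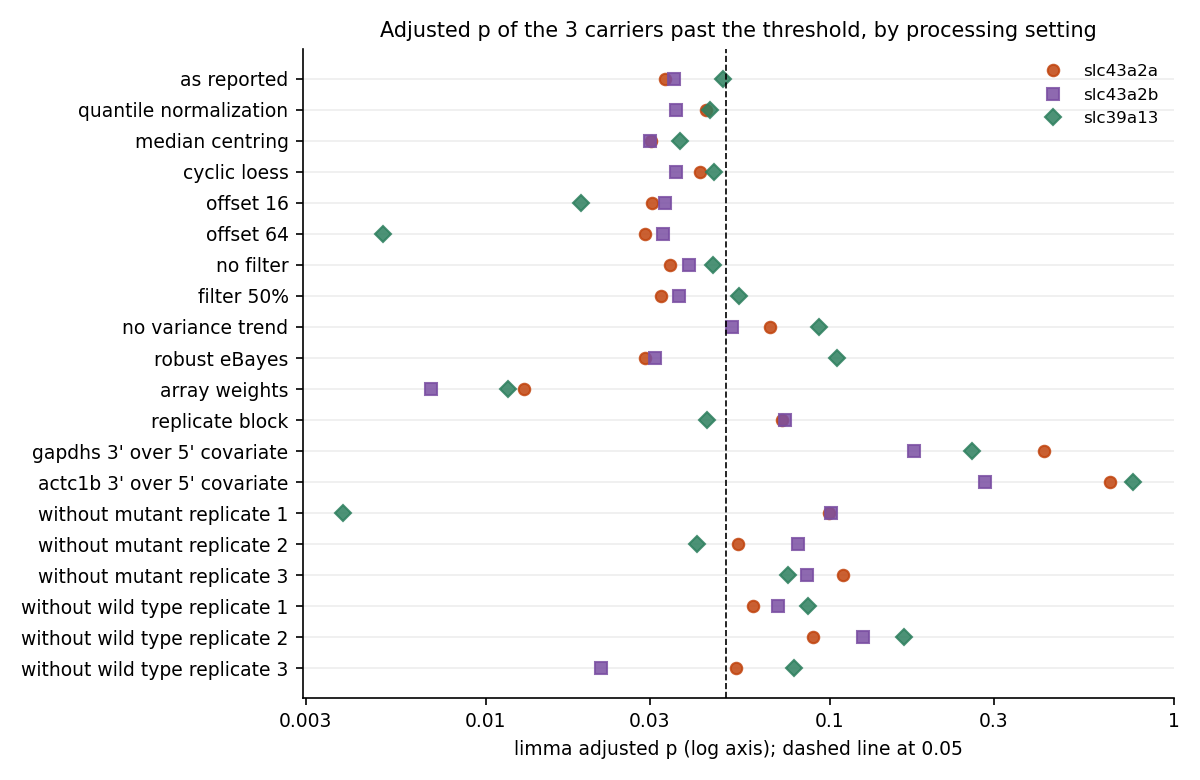
Limma adjusted p (x axis, log scale) of the 3 carriers past the threshold, under the settings reported and each alternative (y axis). The dashed line is at 0.05. All 3 lie left of it with quantile normalization, median centring, cyclic loess, an offset of 16 or 64, no level filter, or array weights. With either 3' over 5' covariate, or without the variance trend of the test, all 3 lie right of the line. They also lie right of it without mutant replicate 3, wild type replicate 1 or wild type replicate 2.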

How the data were processed

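Probe set intensities on a linear scale, 1 column per array, were deposited by the authors. Per the submitters' processing notes MAS5 made them, and its version, target and calls of detection are not given in the sources used. The mean after trimming 2% was 500.13 to 500.14 on every array. A platform annotation gave 10802 probe sets 1 symbol, 135 several and 4680 none. All 157 carrier symbols matched the RefSeq table of GRCz12tu by gene ID.

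Intensities were log2-transformed, 115 control probe sets were set aside and the lowest 30% left out. In R 4.3.3, limma 3.58.1 (eBayes with its trend option, so that the prior variance follows level) gave mutant minus wild type over 10851 probe sets, with Benjamini-Hochberg adjustment. The fit was tested on simulated data with independent noise and no difference in RNA quality between groups, so that test does not bear on the calls here. Probe sets differ in affinity, so signals do not rank transcripts. The members and lists were chosen with earlier results of these data known. Values in every array are given for called members, those of highest wild-type signal (3 of SLC25, 5 others), the 2 of smallest p per tissue list without a call and the smallest p in families with 5 or more tested; others were chosen after their values were seen. Nothing in the labels says whether replicates are separate clutches, and p-values then reflect the spread among these samples only, which may be technical. Figures used matplotlib 3.10.9.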

Additional observations from a re-analysis of the deposited data

How the results depend on the processing

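All alternatives were planned. None of 529 refits of 28 named probe sets turned a called direction: 476 stayed on the same side of the threshold, 34 ended a call and 19 made 1. Only called probe sets could lose a call, and most of the 28 had none to lose. The slc43a2a call ended in 10 of its 19 refits. Those of slc43a2b and slc39a13 ended in 9 of 19 each, and that of mpc2b in 6 of 19. Of carriers lower in the mutant (3 as reported), 0 passed without the variance trend, 0 with the gapdhs covariate and 0 with the actc1b covariate, 12 with array weights and 11 at an adjusted p of 0.1. Replicate numbers did not pair the arrays: same-numbered arrays deviated from their group means with correlations of 0.061, 0.052 and -0.075. With the replicate number as a block 1 passed, slc39a13, and slc43a2a and slc43a2b were at limma adjusted p-values of 0.0726 and 0.0739. With single arrays left out 0 to 2 passed. The 2 were slc39a13 and slc2a2 without mutant replicate 2, and slc43a2b and slc12a3 without wild type replicate 3. Neither slc2a2 nor slc12a3 was called as reported. Of carriers higher (0 as reported), 1 passed with an offset of 64, 3 with array weights, 1 at 0.1 and 0 to 1 with single arrays left out. Of the other transporters (1 as reported), 2 passed after quantile normalization, 3 after median centring, 2 after cyclic loess, 2 with an offset of 64, 2 without the variance trend, 12 with array weights, 0 with either covariate, 6 at 0.1 and 0 to 2 with single arrays left out. Over all probe sets 1416 passed with array weights, 260 with the block, 258 without the trend, 44 and 26 with the gapdhs and actc1b covariates and 108 to 460 with single arrays left out, against 368. For slc39a13 the adjusted p by limma was 0.0546 with a filter of 50%, 0.0928 without the trend and 0.105 in the robust fit. The cause of these changes was not tested. Detection calls were not used here, so dim signals have no stated background.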

Other observations

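A few carriers were set by single arrays. At a spacing of 3-fold from both other arrays of the same genotype, a value chosen after the data were seen, wild type replicate 3 stood alone in 3 of 116 tested carriers (2.59%) and in 0.977% of all tested probe sets. Each other array stood alone in 0 or 1 carriers. The 3 carriers were slc16a9b, with signals of 209, 403 and 1493 in the wild type, and slc25a44b and slc17a9b, where that array was the lowest. The mitochondrial carrier slc25a44b had signals of 300.5, 271 and 313 in the mutant, against 234, 171 and 8.12 in the wild type, and the vesicular nucleotide carrier slc17a9b 74.3, 77.5 and 102 in the mutant, against 39.6, 43.6 and 8.26 in the wild type. Their log2 fold changes of 2.10 and 1.79 did not pass (adjusted p = 0.294 and 0.140 by limma). The mean wild-type log2 signal of slc17a9b was 4.60, under the filter level of 5.36. The paralog slc16a9a, below the level filter, also had its highest signal in that array, with signals of 35.1, 21.3 and 20.5 in the mutant, against 26.3, 35.2 and 336 in the wild type.

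Probe sets of the same carrier did not always give the same value. Of 18 genes with more than 1 probe set, 8 had at least 2 tested, and the differences between them were widest for slc7a8a, slc37a4a (-0.17 and 0.35) and slc38a7 (-0.04 and 0.47). None of these passed the threshold.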
